A study of Arabidopsis thaliana with 6 samples.

Results

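Brassinosteroids are steroid hormones that promote cell expansion in plants, and the genes described here are known to make or inactivate them. The members were taken by locus from a list of 7 genes: BAT1 (AT4G31910), BAS1 (AT2G26710), CYP72C1 (AT1G17060), DWF4 (AT3G50660), CPD (AT5G05690), ROT3 (AT4G36380) and BR6OX2 (AT3G30180). A member was used where a probe set of the array was paired with exactly 1 gene at its locus. Of the 7 genes, 1 met that condition, BAT1, out of 13286 genes on the array with such a probe set. The other members were not analysed here, so the values below are those of BAT1, with further measured genes of the brassinosteroid pathway beside it. The list was selected on measured values of these arrays. Which values were used is not recorded, so every level of BAT1 and all 3 of its differences between groups are counted as used. The levels and differences of BAT1 in all 3 comparisons are therefore a description, and no test is read from them.

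RNA of whole Arabidopsis thaliana seedlings aged 9 days was hybridised to 6 Affymetrix ATH1 arrays, 2 per group and 1 per liquid culture. Seedlings of the mutant line mp-B4149 were given 10 µM dexamethasone (DEX) for 1 h and then 50 µM of the auxin indole-3-acetic acid (IAA) for 1 h. GR-bdl seedlings were given the same DEX and IAA in 1 group, and 50 µM IAA for 1 h without DEX in the control group. The GR-bdl line carries pRPS5A-Myc-GR-bdl, in which a stabilised form of the auxin-response repressor BODENLOS (BDL) is joined to the glucocorticoid receptor under the RPS5A promoter, which is known for its activity in dividing tissue. Such a fusion protein enters the nucleus when DEX is given. The gene MONOPTEROS (MP) encodes the auxin-dependent transcription factor that is bound and repressed by BDL, and mutants in it typically germinate without a primary root. The titles of the mp arrays name IAA alone, but their source labels and the design text of the study give DEX for mp too, which is followed here. Had mp received no DEX, it would differ from DEX-treated GR-bdl in treatment as well as line. All 6 cultures received auxin, so no array shows the level without it. Apart from mp, no seedlings without the fusion protein received DEX, so in GR-bdl the effects of DEX itself and of the fusion protein cannot be told apart. Line and DEX both differ between mp and the controls, and the accession background of the lines is not stated in the labels. Because whole seedlings were used, fewer cells of a type and less RNA per cell cannot be told apart either.

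Brassinosteroids are made from plant sterols by a chain of oxidations, several of them carried out by cytochrome P450 enzymes such as DWF4, CPD, ROT3 and BR6OX2. Receptor kinases at the cell surface, of which BRI1 is the best known, perceive the active hormone. Other enzymes take it out of use: BAS1 hydroxylates it, and BAT1, whose RefSeq synonym is PIZZA, is a putative acyltransferase of the BAHD family, named after its first known enzymes. Plants made to overproduce BAT1 are known for a brassinosteroid-deficient, dwarfed form.

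BAT1 transcript was lowest in mp, intermediate in DEX-treated GR-bdl seedlings and highest in the GR-bdl controls. Its log2 gcRMA intensity was 2.95 and 3.50 on the 2 mp arrays. It was 4.81 and 5.26 on the 2 arrays of DEX-treated GR-bdl, and 6.43 and 7.02 on the 2 control arrays. No group overlapped another. The gap between the highest mp array and the lowest DEX-treated array was 1.30, and that between the highest DEX-treated array and the lowest control array was 1.17. The 2 arrays of a group lay closer together, 0.56 apart in mp, 0.45 in DEX-treated GR-bdl and 0.60 in the controls. Neighbouring groups in this order thus lay further apart than the 2 arrays of any group. The same order without overlap was found for 4.29% of all probe sets.

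**Figure D1:**
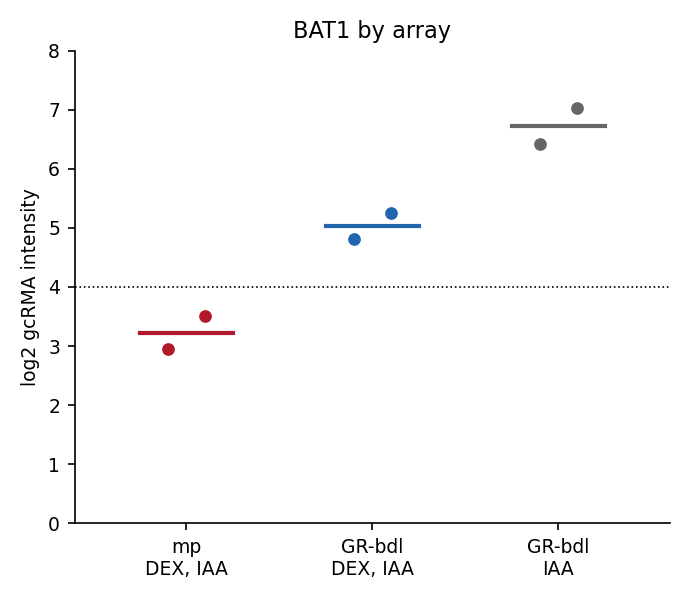
BAT1 level (log2 gcRMA intensity) on each of the 6 arrays, with points for arrays, bars for group means of 2 arrays, and a dotted line at 4, the value under which a level was called low. Both mp arrays (2.95 and 3.50) lie under the line, the DEX-treated GR-bdl arrays (4.81 and 5.26) above it, and the control arrays (6.43 and 7.02) highest.

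On the linear scale the deposited intensities of BAT1 were 7.72 and 11.3 in mp, 28.0 and 38.2 in DEX-treated GR-bdl, and 85.9 and 130.1 in the controls. Within an array, BAT1 stood above 30.7% and 39.2% of the probe sets in mp. It stood above 50.6% and 54.4% in DEX-treated GR-bdl, and above 64.1% and 69.2% in the controls. BAT1 thus lay in the middle of the array's range in GR-bdl seedlings. In mp it lay near the low end, a mean under 4, a level that 43.1 to 44.1% of an array's probe sets did not reach. There the size of a decrease depends on the background correction.

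The first comparison asks what changes when the stabilised repressor is released before auxin is given. BAT1 averaged 5.03 ± 0.32 in DEX-treated GR-bdl and 6.72 ± 0.42 in the controls (SD, n = 2 each). The difference was −1.69 ± 0.25 (limma SE) on the log2 scale, a 3.23-fold lower level in the DEX-treated group. Of the 22746 probe sets compared, 0.431% had a lower difference than BAT1.

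The second comparison set mp seedlings, given DEX and IAA, against the same controls. BAT1 averaged 3.23 ± 0.39 in mp, against 6.72 ± 0.42 in the controls (SD, n = 2 each). The difference was −3.50 ± 0.25 on the log2 scale, an 11.3-fold lower level in mp. A lower difference was found for 1.27% of the probe sets. On log2(intensity + 16), which presses low values together, the difference was −2.26.

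In the third comparison mp seedlings were set against DEX-treated GR-bdl seedlings, both with DEX and IAA. BAT1 averaged 3.23 ± 0.39 in mp and 5.03 ± 0.32 in DEX-treated GR-bdl (SD, n = 2 each). The difference was −1.81 ± 0.25 on the log2 scale, a 3.50-fold lower level in mp. A lower difference was found for 3.7% of the probe sets, and the difference was −0.94 on log2(intensity + 16). The 3 comparisons share arrays, so their values for BAT1 are not independent of each other.

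The order of BAT1, with mp below DEX-treated GR-bdl, which lay below the controls, and no overlap of arrays, was shared by 4.29% of the probe sets. This share describes where BAT1 lies and supports nothing further, since the gene was chosen with its values known. BAT1 varied more between the arrays of a group than 98.7% of the probe sets, with a residual SD of 0.38 on the log2 scale. The median SD over all probe sets was 0.10 in mp, 0.11 in DEX-treated GR-bdl and 0.07 in the controls.

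**Figure D2:**
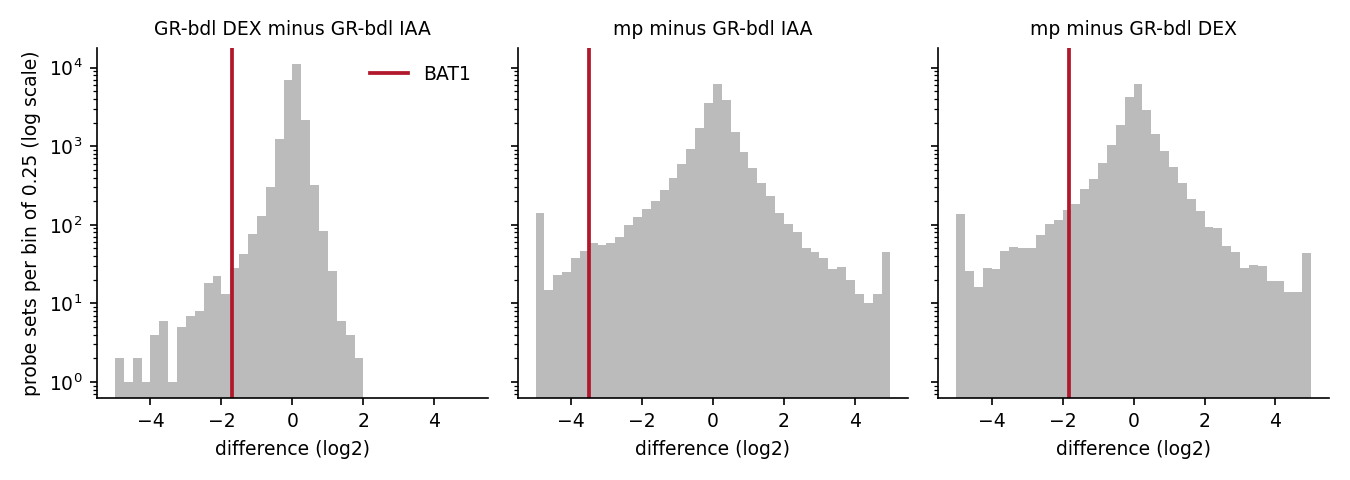
Number of probe sets (log axis, bins of 0.25) by difference on the log2 scale in the 3 comparisons, with BAT1 as a red line and differences beyond 5 in either direction counted in the end bins. BAT1 lies in the lower tail, at −1.69, −3.50 and −1.81, and the distribution is wider in the comparisons with mp.

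The genes with the pattern most like BAT1 were sought by the Pearson correlation of log2 values over the 6 arrays, among 2879 probe sets paired with 1 gene that spanned at least 1 on the log2 scale. The highest were AT1G72920 (r = 0.9904) and AT4G27280 (r = 0.9902), and 60 probe sets (2.08%) had r above 0.95. AT1G72920 had log2 values of 1.23 and 1.17 in mp, 2.16 and 2.37 in DEX-treated GR-bdl, and 3.25 and 3.65 in the controls. It thus followed the order of BAT1 at levels close to the low end, without overlap between groups. AT4G27280 had 7.79 and 8.08 in mp, 8.61 and 9.22 in DEX-treated GR-bdl, and 9.74 and 9.92 in the controls. Its arrays did not overlap between groups either. The points of such a correlation are 3 groups of 2 arrays, so it mostly restates the order of the groups.

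Other genes of brassinosteroid synthesis, response and regulation were listed by locus, and 6 of 55 had a probe set paired with them. They were listed with earlier results of these data known, so their calls are given as a description. None of the 6 listed synthesis genes, 6 sterol genes or 5 inactivation genes had one. BAT1 was thus the only listed enzyme gene of brassinosteroid turnover with a probe set paired with exactly 1 gene. A gene with such a probe set is called measured here. Of the 22746 probe sets, 13436 had such a pairing, so a gene not measured here may still have a probe set on the array. A gene was called where its limma Benjamini-Hochberg adjusted p was under 0.05. Of the 6 measured genes, 2 fell in DEX-treated GR-bdl against the controls (limma) and 4 were not called. In mp against the controls 4 fell and 2 were not called. In mp against DEX-treated GR-bdl 3 were lower, 1 was higher and 2 were not called. With a minimum mean of 4, which drops BRL1, CES and AT1G29160, 2 were called in each comparison with mp. The shares of all probe sets called in either direction were 2.27%, 41.5% and 40.1%. The median difference of the 6 genes was −0.18, −0.83 and −0.46 in the 3 comparisons, beside 0.04, 0.12 and 0.07 over all probe sets.

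The genes known to respond to brassinosteroid were high or intermediate in level and differed in pattern among themselves. BRH1, a RING finger gene known to be lowered by brassinosteroid, had log2 values of 10.93 and 10.81 in mp. It had 8.45 and 8.66 in DEX-treated GR-bdl and 11.02 and 10.92 in the controls. BRH1 was thus low in DEX-treated GR-bdl alone, where it fell by 2.41 ± 0.12 against the controls (limma SE, adjusted p = 2.9e-05). It was higher in mp than in DEX-treated GR-bdl by 2.32 ± 0.12 (limma adjusted p = 2.01e-06). Against the controls, mp differed by −0.10 ± 0.12 (limma adjusted p = 0.547), though with the arrays centred on the hybridization controls, RNAs added just before hybridization, it was called lower (−0.41, limma adjusted p = 0.0363).

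EXPA8, an expansin gene of wall loosening, had log2 values of 5.54 and 5.15 in mp, 5.57 and 5.65 in DEX-treated GR-bdl, and 7.69 and 7.71 in the controls. It was low in both mp and DEX-treated GR-bdl, whose arrays lay close together without overlap. Against the controls it differed by −2.09 ± 0.14 in DEX-treated GR-bdl (limma adjusted p = 0.000158) and by −2.35 ± 0.14 in mp (limma adjusted p = 4.85e-06), a decrease in both. Between mp and DEX-treated GR-bdl it differed by −0.26 ± 0.14 (limma adjusted p = 0.192), and was called lower in mp with the arrays centred on the hybridization controls (0.01) and when mp array 1 was left out (0.0338).

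EXO, known as EXORDIUM, a brassinosteroid-induced gene of cell expansion, was abundant in every group. Its log2 values were 11.54 and 11.53 in mp, 12.43 and 12.24 in DEX-treated GR-bdl, and 12.19 and 12.37 in the controls. The mp arrays lay below all others, while the GR-bdl groups overlapped. EXO was lower in mp, at −0.74 ± 0.12 against the controls and −0.80 ± 0.12 against DEX-treated GR-bdl (limma adjusted p = 0.00139 and 0.000944). In DEX-treated GR-bdl it differed from the controls by 0.06 ± 0.12 (limma adjusted p = 0.909).

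BRL1, a receptor kinase gene related to BRI1, was the only 1 of 17 listed perception and signalling genes with a probe set paired with exactly 1 gene. It lay close to the low end, at 1.67 and 1.53 in mp, 2.42 and 2.10 in DEX-treated GR-bdl, and 2.48 and 2.52 in the controls. It was lower in mp, at −0.91 ± 0.14 against the controls and −0.66 ± 0.14 against DEX-treated GR-bdl (limma adjusted p = 0.000865 and 0.00479). The second of these was not called on log2(intensity + 16) (limma adjusted p = 0.0601). Of 12 listed regulators of brassinosteroid genes 2 were measured. CES, a bHLH factor gene linked to CPD expression, averaged 1.98 in mp, 1.90 in DEX-treated GR-bdl and 1.93 in the controls, near the low end throughout, and was not called in any comparison. AT1G29160 averaged 2.99 ± 0.01 in mp, 4.39 ± 0.02 in DEX-treated GR-bdl and 4.51 ± 0.03 in the controls (SD, n = 2 each). It was lower in mp, at −1.52 ± 0.10 against the controls and −1.40 ± 0.10 against DEX-treated GR-bdl (limma adjusted p = 9.35e-06 and 1.53e-05).

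**Figure D3:**
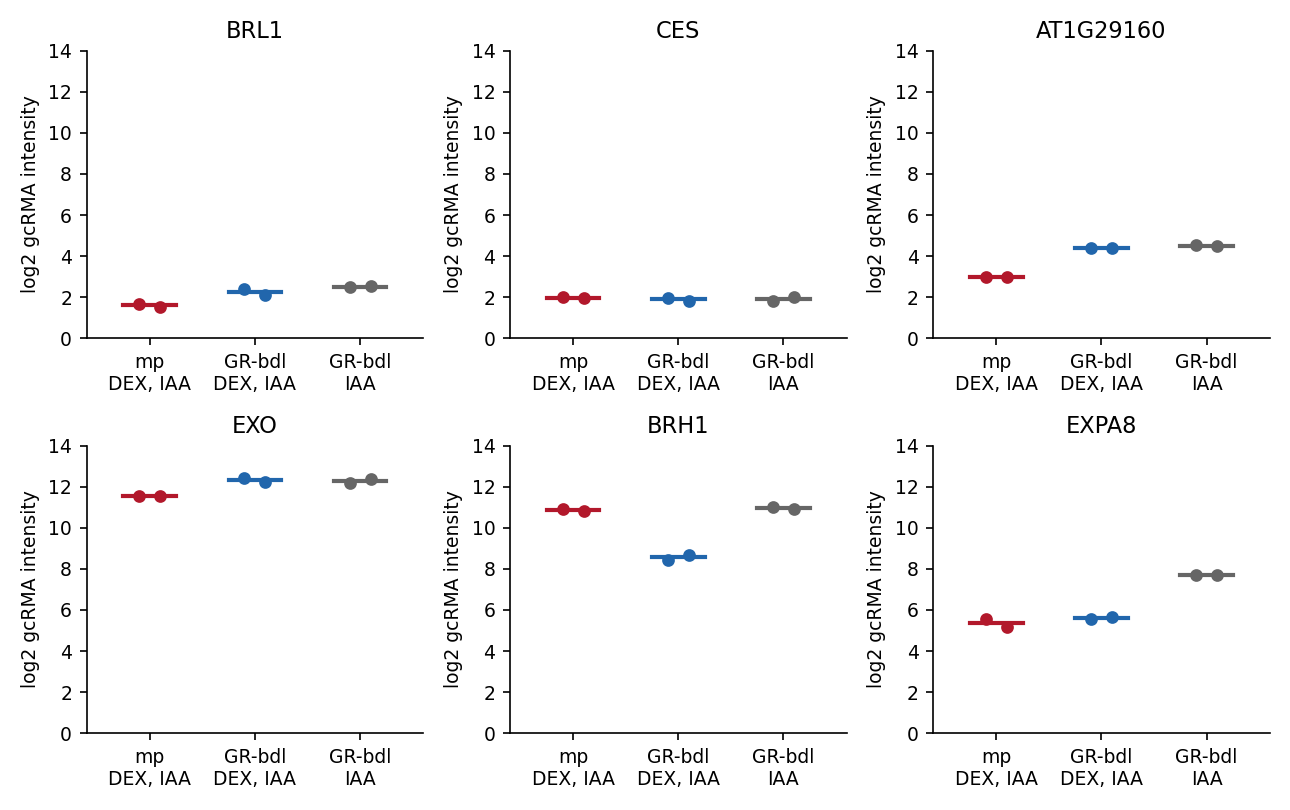
Levels (log2 gcRMA intensity) of the 6 other measured brassinosteroid genes on each array, with points for arrays and bars for group means of 2 arrays. BRH1 is low in DEX-treated GR-bdl alone, EXPA8 is low in mp and DEX-treated GR-bdl, and EXO, AT1G29160 and BRL1 are lowest in mp.

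BAT1 was set beside 5 genes known to respond early to auxin. Every culture received auxin, so their levels cannot show how far auxin changed them in any group. The 5 genes were listed with earlier results of these data known, so their calls are given as a description. IAA29, IAA30, GH3.1, GH3.3 and HAT2 all fell in DEX-treated GR-bdl against the controls (limma), where 1.64% of all probe sets were called lower, with differences of −4.24, −1.90, −2.67, −2.12 and −2.11 on the log2 scale. BAT1 differed by −1.69 in that comparison. In mp against the controls GH3.1 fell by 2.32 ± 0.13 and the other 4 were not called (41.5% of all probe sets were called in either direction), with differences from −0.16 to −0.08, while BAT1 differed by −3.50. With the arrays centred on the hybridization controls the 4 were called lower there, at −0.47 to −0.39. In mp against DEX-treated GR-bdl, IAA29, IAA30, GH3.3 and HAT2 were higher by 4.08, 1.82, 1.98 and 1.96. Of all probe sets 40.1% were called in either direction in that comparison, and 55.2% of these calls were higher. GH3.1 differed by 0.35 ± 0.13 there (limma adjusted p = 0.0662). It was called higher in mp with the repeated quantile normalization (0.0343), with median centring (0.0486) and without DEX-treated array 2 (0.0468). BAT1 differed by −1.81. The difference between BAT1 and these genes was not tested.

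The family of BAT1 was described through 10 measured genes of 16 listed BAHD acyltransferases. In DEX-treated GR-bdl against the controls none of the 10 was called by limma, beside 2.27% of all probe sets, and none had an unadjusted p under 0.05. Their differences there lay between −0.20 and 0.16, against −1.69 for BAT1. In mp against the controls 3 fell, 1 rose and 6 were not called, a share close to the 41.5% called among all probe sets. HCT, an enzyme gene of the lignin pathway, differed by −1.86 ± 0.16 and CER26, which acts in wax formation, by −0.76 ± 0.13. FACT, which makes caffeoyl esters of fatty alcohols, differed by −0.61 ± 0.13, and these 3 were called lower. AT5MAT, whose enzyme adds malonate to anthocyanins, rose by 4.31 ± 0.39. Its mp arrays lay far apart, at 5.85 and 7.35, and its control arrays near the low end, at 2.36 and 2.23. The limma adjusted p of these genes was 3.87e-05, 0.00185, 0.00714 and 4.73e-05. AT2G25150 was also called lower with the arrays centred on the hybridization controls (limma adjusted p = 0.0478). In mp against DEX-treated GR-bdl 3 were lower, 1 was higher and 6 were not called, beside 40.1% of all probe sets called. HCT, CER26 and FACT were lower there, at −2.02, −0.67 and −0.41, and AT5MAT was higher by 4.37. FACT lost that call in several settings. The median difference of the 10 genes was −0.02 in the first comparison, 0.11 in the second and 0.12 in the third. SHT, SDT, AT2G25150, CHAT, GLC, CER26-LIKE and FACT had means under 4 in every group, which limits the room for a decrease. AT5MAT had means under 4 in both GR-bdl groups. In the first comparison only HCT and CER26 thus had means above 4, as BAT1 had. For the others the size of a decrease would depend on the background correction.

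BAT1 lies between PKR2 and RR10 in the order of genes on its chromosome. Of its 3 nearest protein-coding neighbours on either side, AT4G31880, AT4G31890 and AT4G31930 were measured. None of the 3 was called in any comparison by limma, and none had an unadjusted p under 0.05, beside 2.27%, 41.5% and 40.1% of all probe sets called in the 3 comparisons. AT4G31890 averaged 3.42 ± 0.26 in mp, 3.42 ± 0.24 in DEX-treated GR-bdl and 3.39 ± 0.19 in the controls (SD, n = 2 each). These means were all under 4 and so near the low end, which limits the room for a decrease. AT4G31880 and AT4G31930 differed by 0.23 ± 0.16 and 0.40 ± 0.23 in mp against the controls. Their limma adjusted p was 0.0472 without mp array 2 for AT4G31880 and 0.0216 without mp array 1 for AT4G31930. AT4G31880 was also called higher in mp than in DEX-treated GR-bdl without mp array 2 (0.0344).

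**Figure D4:**
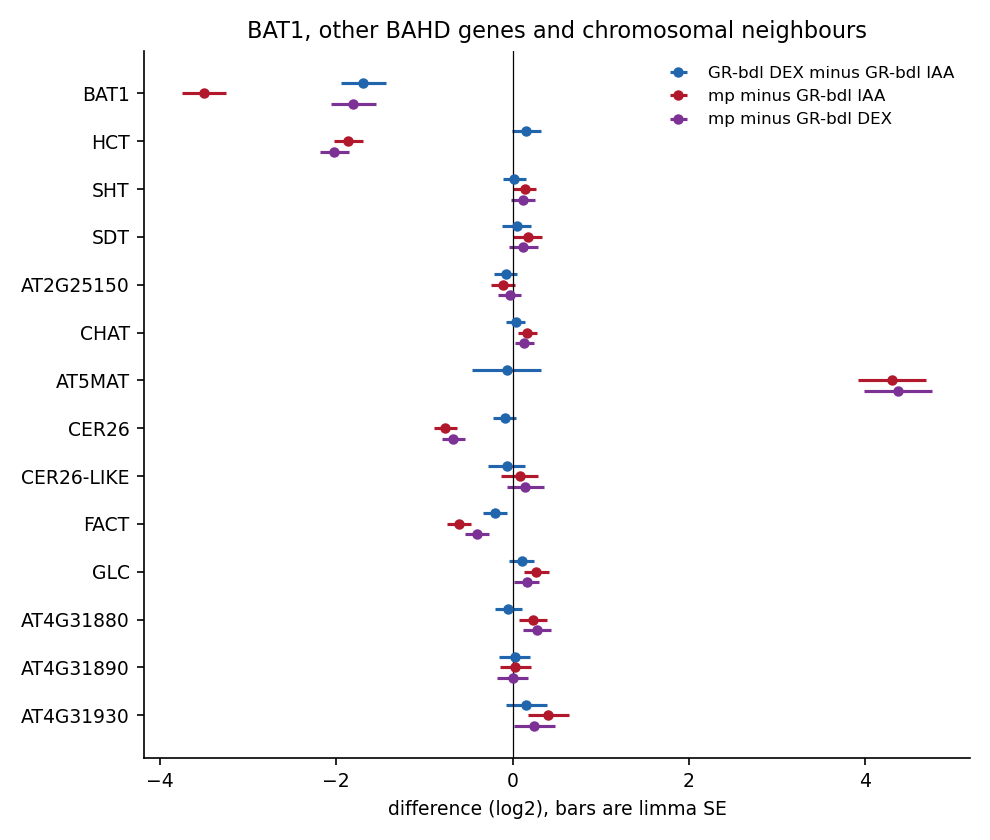
Difference on the log2 scale with its limma SE for BAT1, 10 other BAHD genes and 3 chromosomal neighbours, coloured by comparison. In DEX-treated GR-bdl against the controls BAT1 stands at −1.69 and the 10 BAHD genes lie between −0.20 and 0.16, while HCT and AT5MAT differ in mp.

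The seedlings were checked on markers of root and shoot. Of 10 listed root genes 4 were measured, and of these EXPA7 and EXPA18 of root hairs and JKD of root patterning fell in mp against the controls (limma), with differences of −3.80, −2.89 and −1.52. Of all probe sets 17.5% were called lower there, and 30.7% with the arrays centred on the hybridization controls. EXPA7, EXPA18 and JKD were also lower in mp against DEX-treated GR-bdl, at −3.29, −2.98 and −0.72, though JKD lost that call without DEX-treated array 2, without mp array 2 or on log2(intensity + 16) (limma adjusted p = 0.085, 0.0652 and 0.128). The share of all probe sets called lower was 18.0% in that comparison, and 31.4% with the same centring. PYK10, a beta-glucosidase gene, differed by 0.10 in both comparisons with mp and was not called. The summed intensity of the 4 genes was 9780 to 10420 in mp, 9390 to 9893 in DEX-treated GR-bdl and 9501 to 9813 in the controls, and most of it came from PYK10. Without PYK10 it was 34.4 to 34.8 in mp, 188.3 to 306.7 in DEX-treated GR-bdl and 279.1 to 319.5 in the controls. EXPA7, EXPA18 and JKD averaged 3.65, 3.70 and 3.16 in mp, under 4 and so near the low end. JKD was also under 4 in DEX-treated GR-bdl, at 3.88. In DEX-treated GR-bdl against the controls none of the 4 was called by limma, and 2 had an unadjusted p under 0.05. JKD, at −0.80 ± 0.18, was called there with the arrays centred on the hybridization controls (limma adjusted p = 0.0429), with another setting of eBayes (0.0442) and without control array 2 (0.0367). The 4 measured shoot photosynthesis genes summed to 34950 to 36660 in mp, 37250 to 38950 in DEX-treated GR-bdl and 37420 to 37580 in the controls. Of these SBPASE was called higher in mp against the controls (0.31 ± 0.11, limma adjusted p = 0.0451). It was not called there with the repeated quantile normalization, with the replicate block, without any single control or mp array, or with the arrays centred on the hybridization controls, where it stood at 0.00. With that centring RCA and LHCB4.1 were called lower in mp against the controls, at −0.49 and −0.48, and they were also called lower with the pseudocount of 16 and with eBayes with trend and robust. In the same 3 settings both were called lower in mp against DEX-treated GR-bdl. SBPASE was called higher in that comparison with median centring, with the pseudocount and with that eBayes setting. Of the 4 root genes, EXPA7, EXPA18 and JKD were thus lower in the comparisons with mp, as BAT1 was, while PYK10 and the sum of the 4 were not, and their part in the difference of BAT1 was not tested.

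The 6 arrays had median intensities of 26.1 to 27.1. No probe set was paired with MP or BDL, so the labels were not checked on these genes. The 18 hybridization controls differed by a median of 0.05, 0.33 and 0.24 in the 3 comparisons, and the 24 controls added before labelling by 0.36, 0.61 and 0.19. For the ubiquitin control, the 3′ probe set exceeded the 5′ probe set, a sign of RNA quality, by a log2 difference of 1.14 and 0.86 in mp, 0.53 and 0.68 in DEX-treated GR-bdl, and 0.68 and 0.69 in the controls. For the actin control it was 2.54 and 2.48 in mp, 2.66 and 2.34 in DEX-treated GR-bdl, and 2.76 and 2.55 in the controls. For the GAPDH control it was −0.67 and −0.82 in mp, −0.62 and −0.63 in DEX-treated GR-bdl, and −0.62 and −0.62 in the controls. The mp arrays thus lay above the others for ubiquitin, below them for GAPDH and between the 2 DEX-treated arrays for actin. The part of RNA quality in the difference of BAT1 between mp and the other groups was not tested.

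The difference of BAT1 in each comparison was recomputed in 14 further settings. Against the controls, DEX-treated GR-bdl lay between −1.99 and −1.32 and mp between −3.81 and −2.26 on the log2 scale. In mp against DEX-treated GR-bdl the range was −2.09 to −0.94. The values nearest to 0 all came from log2(intensity + 16).

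**Figure D5:**
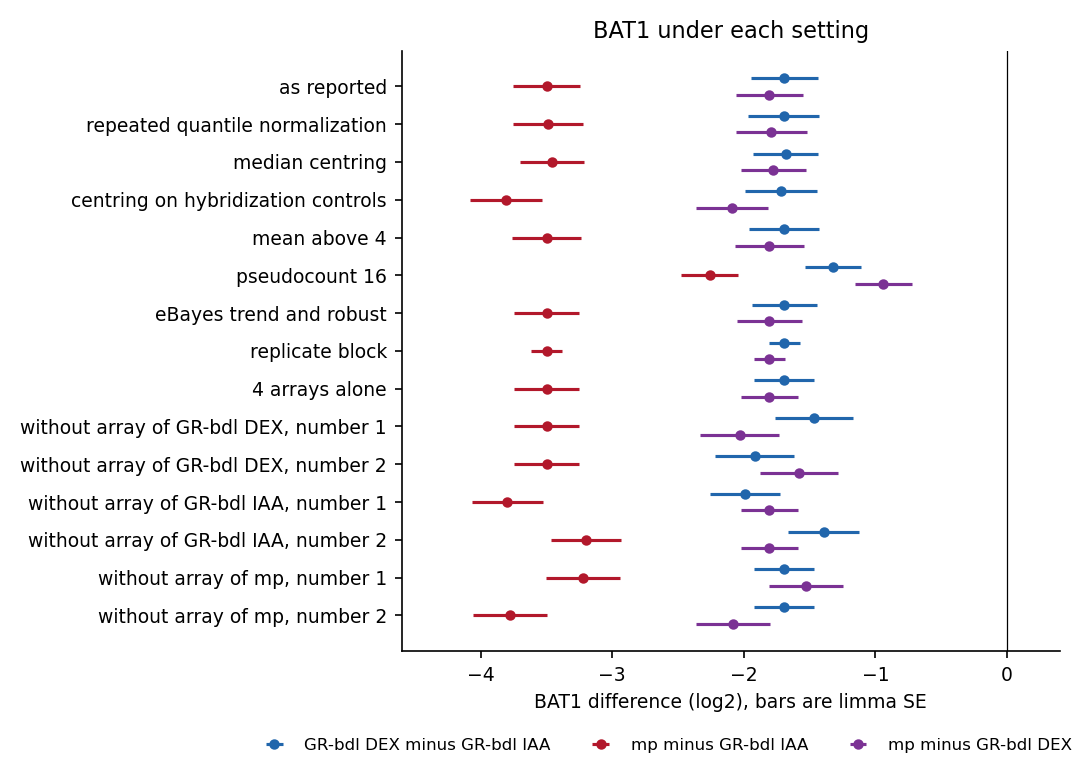
Difference of BAT1 on the log2 scale with its limma SE in the 3 comparisons, as reported and in 14 other settings. All values lie below 0, from −3.81 to −0.94, and the pseudocount of 16 gives the values nearest to 0. Settings that change only the fit or the filter repeat the reported values.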

How the data were processed

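Values were deposited as gcRMA intensities, 1 column per array; the tool is named in the submitters' processing notes, with no version. gcRMA corrects background by probe sequence, normalizes arrays and summarises probe sets. The values were read as linear, since all lay above 0 and many were far too high for a log scale. Groups came from the source labels, since the treatment text gives DEX on all samples, and titles of mp arrays mention only IAA. Log2 was taken with no pseudocount. Without the 64 controls there were 22746 probe sets, of which 13436 paired with 1 gene of the RefSeq table (TAIR10.1, names and gene order only). The test was limma 3.58.1 (R 4.3.3, a mean per group, all 6 arrays, eBayes, 3 residual degrees of freedom), with Benjamini-Hochberg adjustment over all probe sets and a threshold of 0.05. The fit was also run on simulated data with added shifts and normal noise at its own estimated variances. Such a run checks the code but cannot show how well the model suits these arrays. Separate cultures are the replicates, 2 per group, which limits the precision.

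The members and lists were chosen with earlier results of these data known, and the BAHD and neighbour lists after the annotation had been seen. BAT1 and all measured pathway genes were named, with the 2 genes most correlated with BAT1. The members of the other lists that are named were picked for their calls or levels. Of several probe sets for a listed gene, the brightest on average was used. Replicate numbers did not enter the fit: across all probe sets, differences between arrays 2 and 1 correlated at 0.0981, −0.0397 and −0.0303 between pairs of groups. Figures used Python 3.11.15 and matplotlib 3.10.9.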

Additional observations from a re-analysis of the deposited data

How the results depend on the processing

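The 14 other settings were a repeated quantile normalization, 2 centrings, a minimum mean of 4, a pseudocount of 16, eBayes with trend and robust, the replicate block, 4 arrays alone, and leaving out each of the 6 arrays. For a comparison of GR-bdl groups, leaving out an mp array gives the same fit as the 4 arrays alone, and likewise for the others. BAT1 kept its sign in all of them, but many of them could not have changed it. The minimum mean, the eBayes setting, the replicate block and the 4 arrays alone leave a difference of group means as it was. With no overlap between groups, leaving out 1 array cannot reverse their order either. The pseudocount of 16 moved the difference of BAT1 to −2.26 for mp against the controls and to −0.94 for mp against DEX-treated GR-bdl. Without single arrays it ranged from −1.99 to −1.39 (DEX-treated GR-bdl against the controls), −3.80 to −3.20 (mp against the controls) and −2.08 to −1.53 (mp against DEX-treated GR-bdl). Probe sets called in the first comparison numbered 517, and 231 with the pseudocount. Without single arrays they numbered 240 to 437, with 275 without control array 1 and 240 without control array 2. For mp against the controls they numbered 9430, and 6601 to 9943 without single arrays. For mp against DEX-treated GR-bdl they numbered 9114, and 7565 to 8489. Of the 6 measured pathway genes, 2, 4 and 4 were called in the 3 comparisons, and without single arrays 2, 4, and 4 to 5. With the minimum mean of 4, 2 were called in each comparison with mp, since it drops BRL1, CES and AT1G29160. Centring on the hybridization controls moved the median of all probe sets to −0.19 (mp against the controls) and −0.22 (mp against DEX-treated GR-bdl), from 0.12 and 0.07. The share of calls that were higher was then 27.5% and 28.0%, against 57.7% and 55.2%. Relative to that median BAT1 lay at −3.62 and −1.87 before and after. Centring shifts all probe sets of an array alike, so these values could not change. In the fit with replicate number as a block, the differences of BAT1 were −1.69, −3.50 and −1.81 with an SE of 0.12, and 559, 9276 and 9045 probe sets were called; it changed no call of the pathway genes. BAT1 was higher on array 2 than on array 1 by 0.56 in mp, 0.45 in DEX-treated GR-bdl and 0.60 in the controls, but the numbers did not pair the arrays over all probe sets. FACT in mp against DEX-treated GR-bdl lost its call in several settings, with a limma adjusted p of up to 0.216.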
